A study of Homo sapiens with 3 samples.

Results

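The contacts of 6 captured genomic regions were compared between SUM44, a breast cancer cell line, and GM06990, a lymphoblastoid cell line grown from B lymphocytes. These are 2 of the 3 samples of the series and supply 4 of its 6 replicate count columns; the third line, BT483, entered only the estimate of the spread. Capture Hi-C joins the ends of cut DNA inside fixed nuclei, pulls out by hybridisation the joined pairs that hold a chosen region and sequences them, so that a count measures how often a pair of sequences was found together. The captured regions were the breast cancer risk loci 2q35 (chromosome 2 from 217609776 to 218362744 on GRCh37), 8q24.21 (chromosome 8 from 127886760 to 128470692) and 9q31.2 (chromosome 9 from 110758376 to 111099364), and one region each on chromosome 3 (82599410 to 82938789), chromosome 16 (73599933 to 74183980) and chromosome 18 (38494518 to 39252983), for which the labels state no role. SUM44, taken from a pleural effusion, grew in medium free of phenol red with 10% serum and 1 nM estradiol, and GM06990 in medium with 15% serum and no listed estradiol; no other treatment or genetic change is given. Both were fixed for 5 min in 2% formaldehyde, lysed with a dounce and cut with HindIII. Each line is 1 sample with 2 replicates (n = 2 per line), and nothing says that these were separate cultures. The p-values therefore speak only for the spread among these replicates, and that spread may be technical. Hormone, medium and line cannot be told apart. RNA was not measured, so the labelled cell types could not be checked against marker expression.

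As background, most risk variants found by association studies lie outside genes, and contact maps are read for the genes that such DNA touches. Each of these loci has well-known neighbours. IGFBP5, whose product binds insulin-like growth factors, and TNS1, a focal adhesion gene, flank 2q35. MYC, a growth-driving transcription factor gene, and PVT1, a long non-coding RNA gene, follow 8q24.21. KLF4, a transcription factor gene, and RAD23B, which acts in nucleotide excision repair, precede 9q31.2. Contacts fall steeply with distance along a chromosome, so each count was divided by the count expected at its distance in the same replicate and region, and this ratio of observed to expected contacts is called the contact level below. A level of 1 is the distance background of that replicate.

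SUM44 kept more of its contacts near the captured regions. Contacts within 5 Mb of the captured region, called near cis, made up 37.5% and 35.7% of the counted contacts in SUM44 and 22.7% and 12.6% in GM06990. Trans contacts, those with other chromosomes, made up 42.0% and 45.1% in SUM44 and 58.6% and 73.7% in GM06990. Both SUM44 replicates lay above both GM06990 replicates in near cis share and below them in trans share, and an exact permutation test of 2 against 2 cannot go below p = 0.33. The GM06990 replicates stood apart from each other by more than the SUM44 replicates did, in all 6 regions. Total contacts were 3644109 and 3399064 in SUM44 and 2531103 and 4268868 in GM06990, and without molecular identifiers the depth speaks for counting error only. Because these shares differ, every comparison below is relative to the expectation of its own replicate, and with trans totals as the scale 7081 of the 9839 tested near cis fragments were called, 7073 higher and 8 lower in SUM44.

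Of 9839 target HindIII fragments tested within 5 Mb, 1964 (20.0%) differed between the lines, 1108 (11.3%) higher and 856 (8.70%) lower in SUM44 (edgeR quasi-likelihood F test, Benjamini-Hochberg adjusted p under 0.05). With TMM factors, a scaling that assumes most fragments alike, the split was 905 higher and 996 lower. The region at 8q24.21 had the highest share called, 31.6% of 2628, with 505 (19.2%) higher and 326 (12.4%) lower, and the chromosome 3 region the lowest, 7.87% of 788, with 40 (5.08%) higher and 22 (2.79%) lower. At 2q35 23.4% of 1733 were called, 225 higher and 181 (10.4%) lower. The share was 17.5% of 1465 around the chromosome 16 region (133 or 9.08% higher, 123 or 8.40% lower), 13.4% of 2227 around the chromosome 18 region (131 or 5.88% higher, 167 or 7.50% lower) and 11.1% of 998 at 9q31.2 (74 or 7.41% higher, 37 or 3.71% lower). Of all tested fragments, 4325 passed the minimum of 50 contacts only through SUM44, and these held 520 of the higher calls and 18 of the lower ones. Such fragments have few contacts in GM06990, so that they could hardly be called lower, and the counts of higher fragments below describe the stretches and support nothing. On the side of lower coordinates at 2q35 they were 739 of 1101 tested and held 141 of the 166 higher calls, and around the chromosome 3 region they were 579 of 788 and held all 40 higher calls. Fragments that passed only through GM06990 were not counted apart. These could hardly be called higher, and the counts of lower fragments below are likewise descriptions that support nothing. The windows below are sums over all fragments in them. Leaving out SUM44 replicate 1 or 2 left 703 or 753 calls, and leaving out GM06990 replicate 1 or 2 left 1137 or 772, with the lone sample assumed to vary like the other groups. The regions differ in depth, and the part of depth in these shares was not tested.

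Counts were also summed over longer stretches, and whether called fragments lie together was not measured. In fixed windows of 250 kb, 123 of 251 (49.0%) differed, 59 (23.5%) higher and 64 (25.5%) lower in SUM44. In none of the 123 did the replicates of the lines overlap, as a call on 2 replicates per line favours. Windows without a call could lie apart as well, such as that at 2q35 from 219 to 219.25 Mb (levels 1.01 and 1.04 in SUM44, 0.844 and 0.983 in GM06990). Of 42 windows at 2q35 64.3% were called, 14 (33.3%) higher and 13 (31.0%) lower, at 8q24.21 61.9%, 14 (33.3%) higher and 12 (28.6%) lower, and at 9q31.2 57.1%, 12 (28.6%) each way. Around the chromosome 3 region 31.0% of 42 were called, 7 (16.7%) higher and 6 (14.3%) lower, around the chromosome 16 region 52.4% of 42, 7 (16.7%) higher and 15 (35.7%) lower, and around the chromosome 18 region 26.8% of 41, 5 (12.2%) higher and 6 (14.6%) lower. Scaled to near cis totals the split was 35 higher and 70 lower. With trans totals as the scale 170 windows were called, 169 higher and 1 lower, and the median window moved from -0.0094 to 1.55. A lower window below is thus lower relative to the near cis background of its own replicate and region. Without 1 replicate at a time, 60 to 92 windows were called: 63 and 60 without SUM44 replicate 1 or 2, and 92 and 70 without GM06990 replicate 1 or 2. Neighbouring windows called the same way formed 17 runs of 3 or more, which are described by region below and were picked out after the calls were known.

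**Figure D1:**
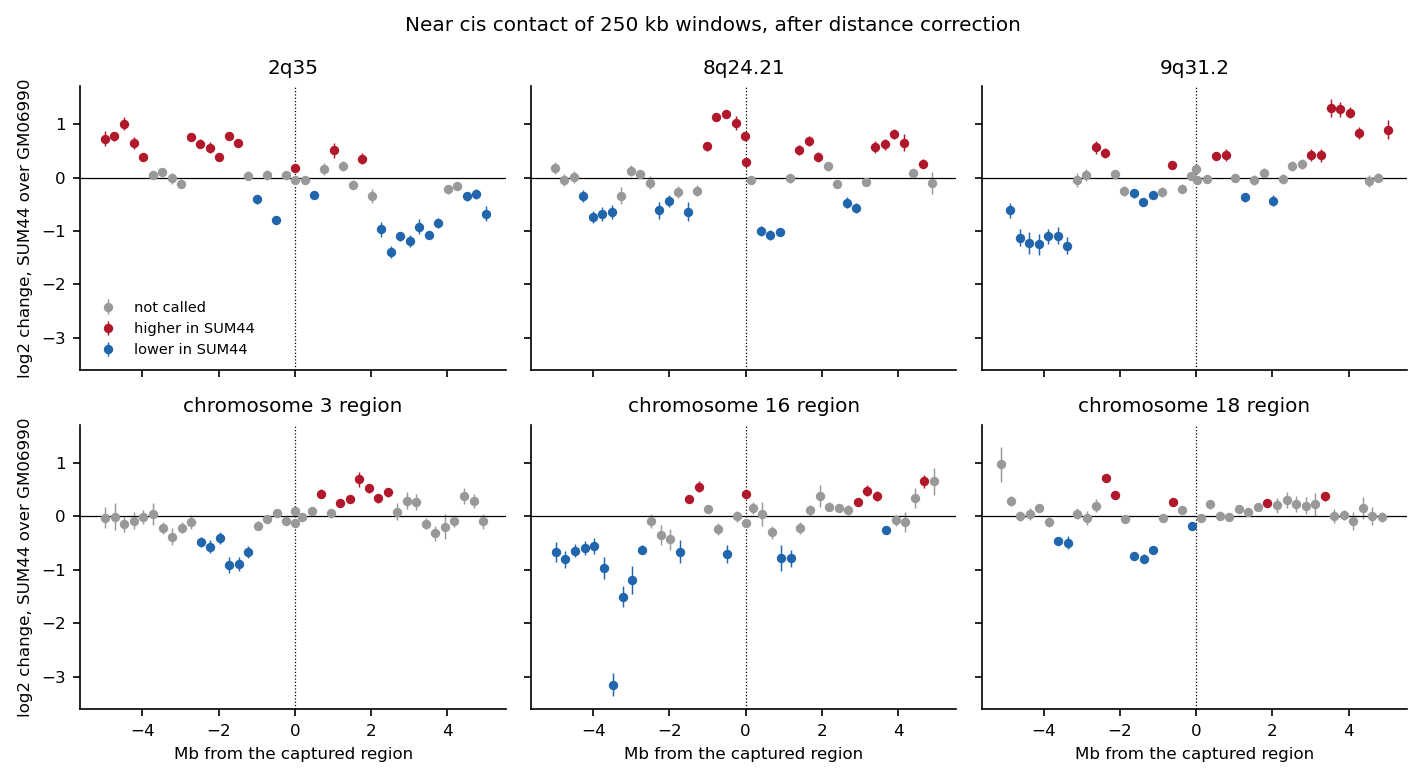
Log2 change of contact in SUM44 over GM06990 (vertical axis, after distance correction) for each 250 kb window against its distance in Mb from the captured region (horizontal axis), 1 panel per region; points are edgeR estimates, bars 1 SE, red higher, blue lower and grey not called. Called windows lie in runs, such as the blue run above 2 Mb at 2q35, the red run just below 0 at 8q24.21 and the window at -3.15 in the chromosome 16 panel.

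At 2q35, SUM44 had more contact with ERBB4, ABCA12 and FN1 on the side of lower coordinates and less with MARCH4, TNS1 and a stretch beyond SLC4A3. Around ERBB4, a receptor tyrosine kinase gene of the EGF receptor family, 5 windows in a row from 212.5 to 213.75 Mb were higher, and 41 of 203 tested fragments there were higher, most of the higher fragments on this side having passed the filter through SUM44 only. The window from 213 to 213.25 Mb had 2053 and 1688 contacts in SUM44 and 411 and 482 in GM06990, which gave levels of 1.10 and 1.05 against 0.485 and 0.585. Only the GM06990 replicates lay below the distance background, and the difference was 1.01 on the log2 scale (SE 0.12, adjusted p = 0.00156, edgeR). A second run from 214.75 to 216.25 Mb lay over VWC2L, BARD1 (the partner of BRCA1), ABCA12 (a lipid transporter of the skin) and ATIC. It also covered parts of SPAG16 and FN1 (fibronectin), and 86 of its 366 tested fragments were higher. The next window over FN1, from 216.25 to 216.5 Mb, was not called (log2 change 0.04, adjusted p = 0.742, edgeR). Nor was the window over SPAG16 just before the run, from 214.5 to 214.75 Mb (-0.11, adjusted p = 0.278). Contact levels along ABCA12 were 1.13 and 1.11 in SUM44 and 0.635 and 0.629 in GM06990, and along FN1 they were 1.02 and 1.04 against 0.684 and 0.742. The replicates did not overlap in either gene. Such gene levels sum the fragments over a gene and 10 kb on each side and were not tested as sums.

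On the other side the run from 220.5 to 222.25 Mb was lower in all 7 of its windows, with 47 of 73 tested fragments lower and 0 higher. Its window from 220.75 to 221 Mb had levels of 0.577 and 0.624 in SUM44 and 1.73 and 1.43 in GM06990, a log2 change of -1.40 (SE 0.11, adjusted p = 0.000464, edgeR). SUM44 was below the background there and GM06990 above it. In the window before it, the fragment of chromosome 2 from 220636169 to 220642138, had 14 and 12 contacts in SUM44 and 39 and 37 in GM06990 (log2 change -2.50, SE 0.35, adjusted p = 1.45e-05). SLC4A3, an anion exchanger gene at the start of the run, had 5 of 6 fragments lower. PAX3, a developmental transcription factor gene farther out, lay in a further run of 3 lower windows, and 2 of its 11 fragments were lower.

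Close to the 2q35 capture the genes differed from one another. MARCH4, which encodes a membrane-bound ubiquitin ligase, had 40 of 45 fragments lower and 0 higher, with levels of 0.455 and 0.435 in SUM44 against 0.946 and 0.885 in GM06990. TNS1 had 26 of 52 fragments lower and 0 higher, at 0.786 and 0.764 against 1.12 and 1.15. IGFBP5 stood well above the background in both lines, at 2.28 and 2.25 in SUM44 and 1.8 and 1.88 in GM06990, and 3 of its 7 fragments were higher and 1 lower. DIRC3, the long non-coding RNA gene that reaches into the capture, had 10 of 75 fragments higher and 11 lower and levels from 1.25 to 1.30 in all 4 replicates. In all, 269 of the 1053 fragments tested in the 38 placed genes of this locus were called (25.5%), near the share of the whole region.

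The 250 bases before the annotated starts of IGFBP5, above the background in both lines, and MARCH4, with the most fragments lower, are shown to set the 2 promoters side by side (RefSeq, GRCh38.p14, 5′ to 3′ on the gene strand, which is the minus strand for both, at chr2:216695550-216695799 and chr2:216372484-216372733; the RefSeq symbol of MARCH4 is MARCHF4).
IGFBP5: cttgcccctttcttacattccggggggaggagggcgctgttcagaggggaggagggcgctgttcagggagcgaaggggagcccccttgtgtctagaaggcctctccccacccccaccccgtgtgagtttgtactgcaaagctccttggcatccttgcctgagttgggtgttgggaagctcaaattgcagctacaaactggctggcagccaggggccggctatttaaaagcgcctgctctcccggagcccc
MARCH4: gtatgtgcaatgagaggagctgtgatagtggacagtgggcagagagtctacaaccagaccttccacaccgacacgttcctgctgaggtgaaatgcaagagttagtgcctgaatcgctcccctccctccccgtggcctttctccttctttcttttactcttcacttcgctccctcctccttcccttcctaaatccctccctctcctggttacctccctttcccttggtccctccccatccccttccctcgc
They hold 61.2% and 55.2% G and C. Capitals would mark a GC box (GGGCGG on either strand), the full estrogen response element GGTCANNNTGACC, its arm GGTCA on either strand, or the HindIII site AAGCTT, and none of these letters occurs in either. Of 35116 RefSeq promoters of this length, 42.6% hold a GC box, 0.0399% the full element, 32.6% the arm, which also lies within every full element, and 5.02% a HindIII site. The counts were not read at these promoter bases, since gene positions on GRCh37 were known only to 10 kb.

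At 8q24.21, SUM44 had more contact with the gene-poor stretch before the capture, with a stretch that reaches CCDC26 and with ADCY8, and less with MYC and PVT1. The run from 126.75 to 128 Mb had 286 of 344 fragments higher. Its window from 127.25 to 127.5 Mb had 20026 and 17907 contacts in SUM44 and 3431 and 2923 in GM06990, at levels of 0.831 and 0.828 against 0.379 and 0.349 (log2 change 1.19, SE 0.06, adjusted p = 0.000327, edgeR). Both lines were under the distance background in this window, GM06990 by far the more. When the captured fragments were divided into 3 equal parts along the region, each part gave the same direction, with log2 ratios of levels of 0.97, 1.10 and 1.62. The ratio was highest from the part nearest to MYC. Here and below the parts divide the same counts whose sum chose the window, so their shared direction is a description only. FAM84B, the one placed gene of this run, had 6 of 6 fragments higher.

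The 3 windows from 128.75 to 129.5 Mb, over PVT1 and the DNA beyond it, had 170 of 208 fragments lower and 0 higher. In the window from 129 to 129.25 Mb the levels were 0.862 and 0.877 in SUM44 and 1.76 and 1.89 in GM06990 (log2 change -1.07, SE 0.10, adjusted p = 0.000727, edgeR), and the 3 parts of the capture gave -0.63, -1.50 and -1.11. With trans totals as the scale this window reversed, at 0.36. PVT1 itself had 69 of 80 fragments lower. Along MYC, levels were 1.53 and 1.53 in SUM44 and 2.57 and 2.85 in GM06990, with 4 of 5 fragments lower, so that MYC was above the background in both lines and further above it in GM06990. MYC lies at the edge between this run and the window from 128.5 to 128.75 Mb. That window was not called (log2 change -0.05, adjusted p = 0.514, edgeR), with 16 of 86 fragments higher and 9 lower. The 2 fragments with the largest fall lay beyond PVT1: that from 129215845 to 129218722 had 182 and 142 contacts in SUM44 and 246 and 241 in GM06990 (log2 change -2.15, SE 0.19, adjusted p = 9.35e-09). It lay 745 kb from the capture.

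Farther out on both sides the direction changed again. From 129.75 to 130.5 Mb 3 windows were higher, of which the last, with 19 of 73 fragments higher, reaches CCDC26, a long non-coding RNA gene. CCDC26 itself had 19 of 85 fragments higher and 2 lower, the next window over it was not called (log2 change 0.21, adjusted p = 0.0756), and levels along the gene were 1.99 and 1.97 in SUM44 and 1.71 and 1.55 in GM06990. ADCY8, an adenylyl cyclase gene, had 10 of 86 fragments higher and lay in the first 2 windows of a run of 4 higher windows from 131.75 to 132.75 Mb. ASAP1, which lies between them and encodes a regulator of Arf GTPases, went the other way, with 25 of 123 fragments lower and 2 higher. On the side of lower coordinates MTSS1, an actin-binding scaffold gene, had 19 of 62 fragments lower and 1 higher, and NSMCE2, a SUMO ligase gene, 20 of 83 lower and 1 higher. TRIB1, a pseudokinase gene, had levels of 0.356 and 0.329 in SUM44 and 0.579 and 1.15 in GM06990, with 2 of its 3 fragments lower. Over the 22 placed genes of this locus 14 had both SUM44 replicates below both GM06990 replicates and 5 above. Such separation was common elsewhere, with 11 below and 19 above of 38 genes at 2q35 and 6 and 17 of 26 at 9q31.2. Around the regions on chromosomes 3, 16 and 18 it was 3 and 2 of 6, 18 and 4 of 28, and 1 and 6 of 13. Of 931 fragments tested in the genes of 8q24.21, 22.1% were called, less than the 31.6% of the region.

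At 9q31.2, KLF4 had levels that overlapped between the lines, while RAD23B, CTNNAL1 and a distant block around UGCG had higher levels in SUM44. KLF4 stood at 2.63 and 2.53 in SUM44 and 2.48 and 2.65 in GM06990; the replicates overlapped, and 0 of its 6 fragments were called. RAD23B, its neighbour, had levels of 1.07 and 1.04 against 0.725 and 0.755, and 9 of 21 fragments were higher. CTNNAL1, an alpha-catulin gene beyond the capture, had 21 of 45 fragments higher, at 0.764 and 0.770 against 0.448 and 0.455. Its fragment from 111716442 to 111716711, 270 bases long, had 106 and 96 contacts in SUM44 and 8 and 9 in GM06990 (log2 change 2.59, SE 0.34, adjusted p = 6.15e-06, edgeR). ZNF462, a zinc finger gene on the far side of KLF4, had 4 of 48 fragments lower and 0 higher, so calls on the same flank of the capture went in both directions.

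The promoters of RAD23B and KLF4, the neighbours of which one had called fragments and the other had none, are shown for the same 250 bases (RefSeq, GRCh38.p14, 5′ to 3′, plus strand at chr9:107283029-107283278 for RAD23B, minus strand at chr9:107489770-107490019 for KLF4), with GC boxes in capitals.
RAD23B: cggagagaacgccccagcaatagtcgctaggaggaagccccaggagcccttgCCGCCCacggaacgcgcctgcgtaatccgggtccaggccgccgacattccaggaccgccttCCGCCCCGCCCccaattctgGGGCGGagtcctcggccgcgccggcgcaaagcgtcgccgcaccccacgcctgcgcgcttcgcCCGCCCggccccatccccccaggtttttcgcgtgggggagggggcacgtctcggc
KLF4: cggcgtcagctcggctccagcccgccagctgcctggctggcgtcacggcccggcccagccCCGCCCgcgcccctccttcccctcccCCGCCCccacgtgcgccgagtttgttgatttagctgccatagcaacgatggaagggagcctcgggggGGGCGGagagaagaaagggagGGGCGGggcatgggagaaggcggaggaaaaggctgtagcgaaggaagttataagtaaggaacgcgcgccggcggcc
RAD23B holds 5 GC boxes, 2 of them overlapping, and KLF4 4, at 73.2% and 69.2% G and C. Neither holds the full estrogen element, its arm or a HindIII site. The table lists 3 starts for RAD23B, of which the first is printed.

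The windows with the largest rise and fall at 9q31.2 lay well away from the capture. From 114 to 115.5 Mb 6 windows in a row were higher, over KIAA0368, UGCG (glucosylceramide synthase), SUSD1, PTBP3 (an RNA-binding protein) and KIAA1958. In the window from 114.5 to 114.75 Mb there were 1031 and 826 contacts in SUM44 and 217 and 314 in GM06990, at levels of 1.51 and 1.40 against 0.50 and 0.679 (log2 change 1.30, SE 0.17, adjusted p = 0.0023, edgeR). No single fragment there reached 50 contacts. From 105.75 to 107.5 Mb, which holds none of the placed genes, 7 windows in a row were lower, and the window from 107.25 to 107.5 Mb had levels of 0.451 and 0.396 against 1.05 and 0.998 (log2 change -1.27, SE 0.16, adjusted p = 0.00184). In both windows the 3 parts of the captured region gave the same direction, as the choice of the windows by their sums favours.

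Around the chromosome 3 region, which lies between GBE1, the glycogen branching enzyme gene, and CADM2, a cell adhesion gene, with the axon guidance receptor gene ROBO1 beyond GBE1, 6 windows from 80 to 81.5 Mb were lower and 6 from 84 to 85.5 Mb higher. The window from 84.5 to 84.75 Mb had levels of 1.41 and 1.42 in SUM44 and 0.829 and 0.924 in GM06990 (log2 change 0.69, SE 0.13, adjusted p = 0.00804, edgeR). That from 80.75 to 81 Mb had 0.459 and 0.406 against 0.753 and 0.877 (log2 change -0.91, SE 0.15, adjusted p = 0.00412). Neither call held throughout when 1 replicate was left out: the first was lost without SUM44 replicate 2 (0.68) or either GM06990 replicate (0.61 and 0.77) and the second without GM06990 replicate 2 (-0.80). GBE1 had 1 of 63 fragments lower and none higher. CADM2 had levels of 1.43 and 1.42 against 1.18 and 1.14 with 0 of 5 fragments called, and ROBO1, at 0.794 and 0.829 against 0.923 and 0.957, had no fragment with 50 contacts.

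Around the chromosome 16 region the widest difference of all 251 windows appeared. The 10 windows from 68.5 to 71 Mb were all lower, over CDH1 (E-cadherin, the adhesion protein of epithelial cells), HAS3, TERF2, NFAT5, NQO1, WWP2 and HYDIN. In the window from 70 to 70.25 Mb there were 153 and 106 contacts in SUM44 and 742 and 784 in GM06990, at levels of 0.139 and 0.109 against 1.10 and 1.11 (log2 change -3.15, SE 0.22, adjusted p = 0.00046, edgeR). GM06990 was at the distance background and SUM44 was nearly empty. All 8 tested fragments of it were lower; that from 70194144 to 70196632 had 3 and 6 contacts in SUM44 and 84 and 110 in GM06990 (log2 change -4.98, SE 0.36, adjusted p = 2.57e-10), and the next one, 70196633 to 70225726, had 1 and 1 against 31 and 48. The trans level of this 1 Mb bin, described below, differed by -0.56. Along CDH1 levels were 0.403 and 0.356 against 0.715 and 0.664. Nearer the capture ZFHX3, a transcription factor gene, had 31 of 93 fragments lower and 2 higher, and PMFBP1 beside it 12 of 26 higher. On the other side WWOX, an oxidoreductase gene across a common fragile site, and ADAMTS18, a secreted protease gene, had 6 of 37 and 6 of 38 fragments higher. The WWOX window from 78.75 to 79 Mb (levels 2.17 and 2.16 against 1.46 and 1.30, log2 change 0.65, SE 0.12, adjusted p = 0.00685) lost its call without GM06990 replicate 2 (0.57) and with near cis totals (0.22).

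Around the chromosome 18 region, PIK3C3, the catalytic subunit gene of the class III phosphoinositide kinase, had 14 of 55 fragments higher, with levels of 0.601 and 0.595 in SUM44 against 0.446 and 0.437. CELF4, an RNA-binding protein gene, had 28 of 69 fragments lower and 0 higher. Between them the 3 windows from 36.75 to 37.5 Mb had 108 of 231 fragments lower and 1 higher. The window from 37 to 37.25 Mb had levels of 0.747 and 0.747 against 1.29 and 1.29 (log2 change -0.79, SE 0.09, adjusted p = 0.00156, edgeR). With the trans level of the bin in the offset its change was -0.28 and the call was lost (adjusted p = 0.0676). That offset moved the median window to 0.58, and relative to that median this window stood at -0.86. With trans totals, which moved the median window to 1.55, this window reversed, to 0.79. The window from 36 to 36.25 Mb had levels of 1.60 and 1.63 against 0.980 and 0.981 (0.72, SE 0.06, adjusted p = 0.000464). On the distance-corrected scale these neighbouring stretches differed in opposite directions. Most called fragments lay on the side of lower coordinates, 19.5% of 1275 against 5.25% of 952 on the other side.

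**Figure D2:**
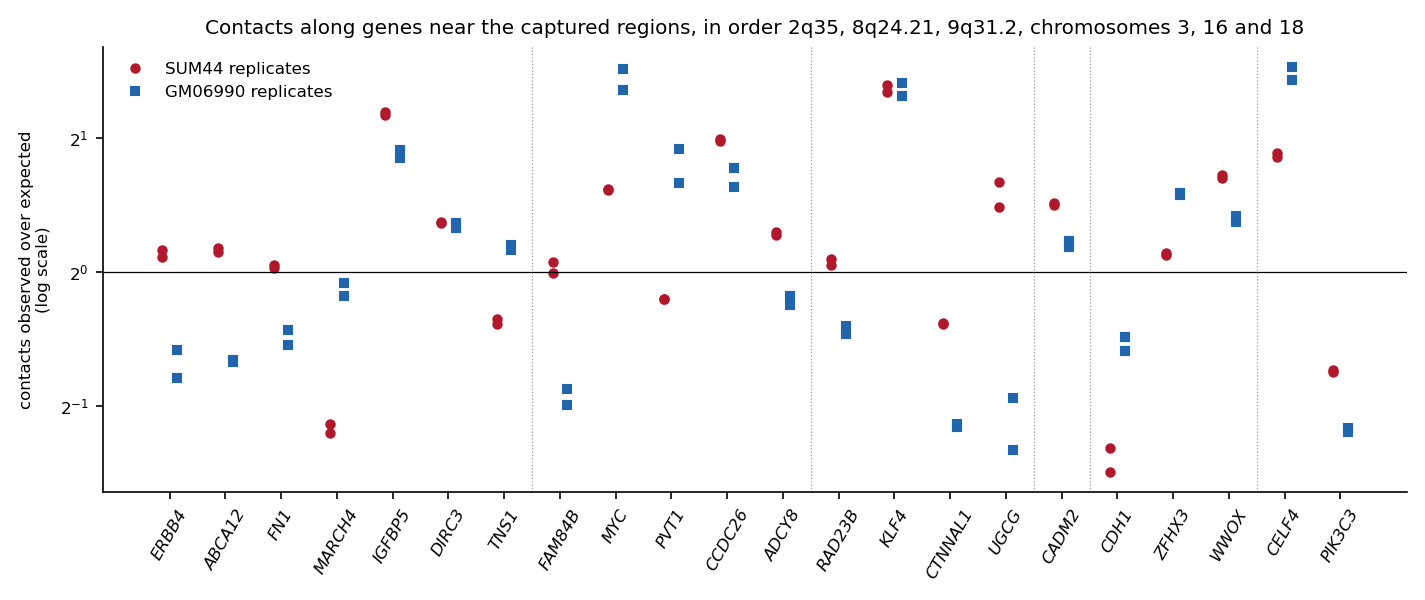
Contact level (observed over expected contacts, log scale, vertical axis) summed over each named gene and 10 kb on each side, for both replicates of SUM44 (red circles) and GM06990 (blue squares); dotted lines part the captured regions. The replicates of a line lie close together, and those of the 2 lines overlap at KLF4, at 2.48 to 2.65, while MARCH4 and MYC are higher in GM06990 and ERBB4 and UGCG in SUM44.

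The named fragments with the largest rise included very short ones. Of the 12 named as highest, 6 were shorter than 50 bases: 8 bases on chromosome 16 (72275145 to 72275152, 75 and 63 contacts against 7 and 3), 26 on chromosome 16, 14 on chromosome 8, 46 on chromosome 9, and 13 and 8 on chromosome 18. None of the 12 named as lowest was, the shortest having 402 bases. The share of fragments this short among all those tested was not counted, so the lengths describe the named fragments only. The part of fragment length in these calls was not tested. Among the longer ones, the fragment at 84105198 on chromosome 3, 1721 bases long, had 31 and 21 contacts in SUM44 and 0 and 0 in GM06990.

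Beyond 5 Mb on the same chromosome, 423 of 794 bins of 1 Mb differed (53.3%), 165 (20.8%) higher and 258 (32.5%) lower in SUM44 (edgeR, adjusted p under 0.05); with TMM factors the split was 204 and 223. By region 69.4% of 232 bins were called for 2q35, 53 (22.8%) higher and 108 (46.6%) lower, 49.3% of 134 for 8q24.21, 30 (22.4%) higher and 36 (26.9%) lower, and 65.7% of 105 for 9q31.2, 35 (33.3%) higher and 34 (32.4%) lower. For the chromosome 3 region 33.3% of 186 were called, 24 (12.9%) higher and 38 (20.4%) lower, for the chromosome 16 region 59.2% of 71, 16 (22.5%) higher and 26 (36.6%) lower, and for the chromosome 18 region 34.8% of 66, 7 (10.6%) higher and 16 lower. Without 1 replicate the total was 246 or 254 (SUM44 replicate 1 or 2) and 294 or 279 (GM06990 replicate 1 or 2). The largest rise lay on the short arm of chromosome 8: the bin from 36 to 37 Mb had 2643 and 2481 contacts with 8q24.21 in SUM44 and 201 and 318 in GM06990, at levels of 4.11 and 4.11 against 0.672 and 0.703 (log2 change 2.58, SE 0.10, adjusted p = 3.86e-06). Its trans level differed by 3.12, and once that level was put into the expectation the change became -0.54 (adjusted p = 0.00983). On chromosome 2 the bin from 12 to 13 Mb had 96 and 79 contacts with 2q35 in SUM44 and 455 and 737 in GM06990 (log2 change -3.23, SE 0.14, adjusted p = 5.1e-06), and 9 of 10 bins from 0 to 10 Mb were lower. The bin from 26 to 27 Mb, on the same arm, was higher (4.80 and 4.74 against 1.43 and 1.41, log2 change 1.75).

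For 9q31.2 all 10 bins from 130 to 140 Mb were higher, with a median log2 change of 1.16, and the bin from 139 to 140 Mb reached 2.04 (SE 0.28, adjusted p = 0.000688). Their trans level was lower in SUM44, with a median of -0.64, and 9 of the 10 bins were called lower in trans. In those 9 bins the far cis and trans differences had opposite signs, and in the bin from 130 Mb, with a far cis change of 1.38 and a trans level of 1.37, they had the same sign. The chromosome 3 region had 2 and 9 contacts with the bin from 50 to 51 Mb in SUM44 and 52 and 79 in GM06990 (log2 change -3.30, SE 0.52, adjusted p = 0.00143), while the bin from 15 to 16 Mb was higher (1.46 and 1.55 against 0.390 and 0.594, log2 change 1.59). The chromosome 16 region contacted the bin from 84 to 85 Mb less (477 and 448 contacts against 977 and 1301, log2 change -1.73, SE 0.32, adjusted p = 0.00308), and the chromosome 18 region that from 19 to 20 Mb (459 and 392 against 895 and 1160, log2 change -1.26, SE 0.10, adjusted p = 9.11e-05). Across bins, Pearson's r between the far cis change and the trans level of the same bin was 0.67 at 2q35 (232 bins), 0.49 at 8q24.21 (134), 0.38 at 9q31.2 (105), 0.39 at chromosome 3 (186), -0.23 at chromosome 16 (71) and -0.13 at chromosome 18 (66). These bins share libraries and neighbours, and r is given as a description only.

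**Figure D3:**
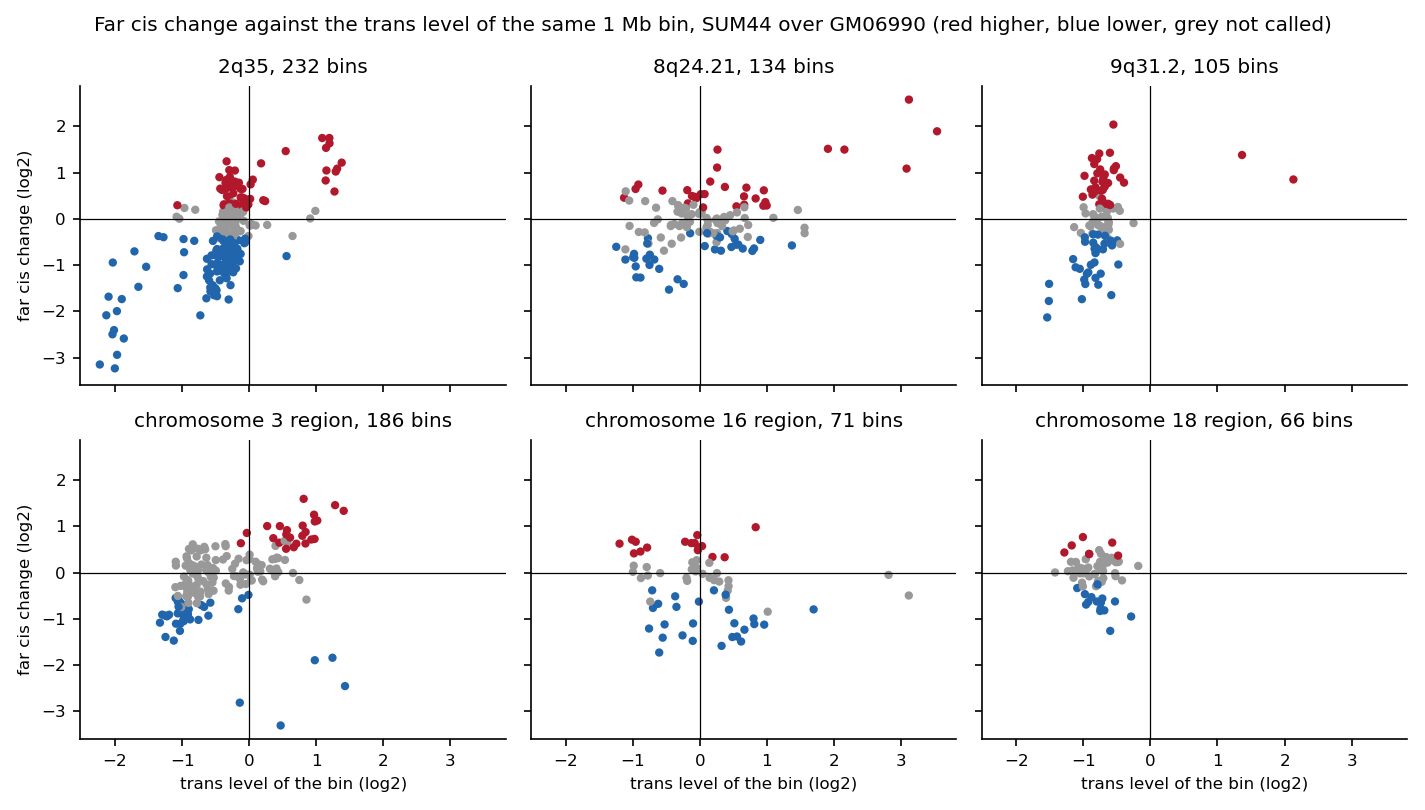
Far cis log2 change of each 1 Mb bin (vertical axis) against the log2 trans level of the same bin seen from the regions on other chromosomes (horizontal axis), 1 panel per captured region; red bins were called higher, blue lower and grey not called. At 2q35 bins low on both axes lie apart at trans levels near -2, and at 8q24.21 the bin highest on the vertical axis, 2.58, has a trans level of 3.12.

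In trans, whole chromosomes and arms differed together. Of 2867 bins of 1 Mb, each seen from all regions on other chromosomes, 1461 differed (51.0%), 510 (17.8%) higher and 951 (33.2%) lower in SUM44 (edgeR, adjusted p under 0.05). The median bin stood at -0.17 and with TMM factors at -0.0029, where the split became 802 higher and 670 lower; the chromosome medians named below kept their sign under both scalings. Without 1 replicate 585 or 580 bins (SUM44 replicate 1 or 2) and 631 or 639 (GM06990 replicate 1 or 2) were called. Chromosome 1 took 11.1% ± 0.12 of trans contacts in SUM44 and 8.40% ± 0.05 in GM06990 (mean ± SD, n = 2), with 107 of 230 bins higher, 54 lower and a median of 0.39. Medians were also positive on chromosomes 20 (0.39) and 7 (0.33). On chromosome 13, 86 of 97 bins were lower and 0 higher (median -0.73), on chromosome 18 66 of 74 and 0 (-0.78), on chromosome 17 65 of 80 and 0 (-0.61) and on chromosome 9 107 of 117 and 2 (-0.76). Chromosome 22 had the lowest median, -1.24, with 20 of 36 bins lower and 1 higher. It did not differ as a whole: the median was -1.39 from 20 to 30 Mb and 0.33 from 40 to 50 Mb, where no bin was called. The files measure neither the copy number nor the linear order of the chromosomes of the lines, so contacts per copy, copy number and rearrangement cannot be told apart here.

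**Figure D4:**
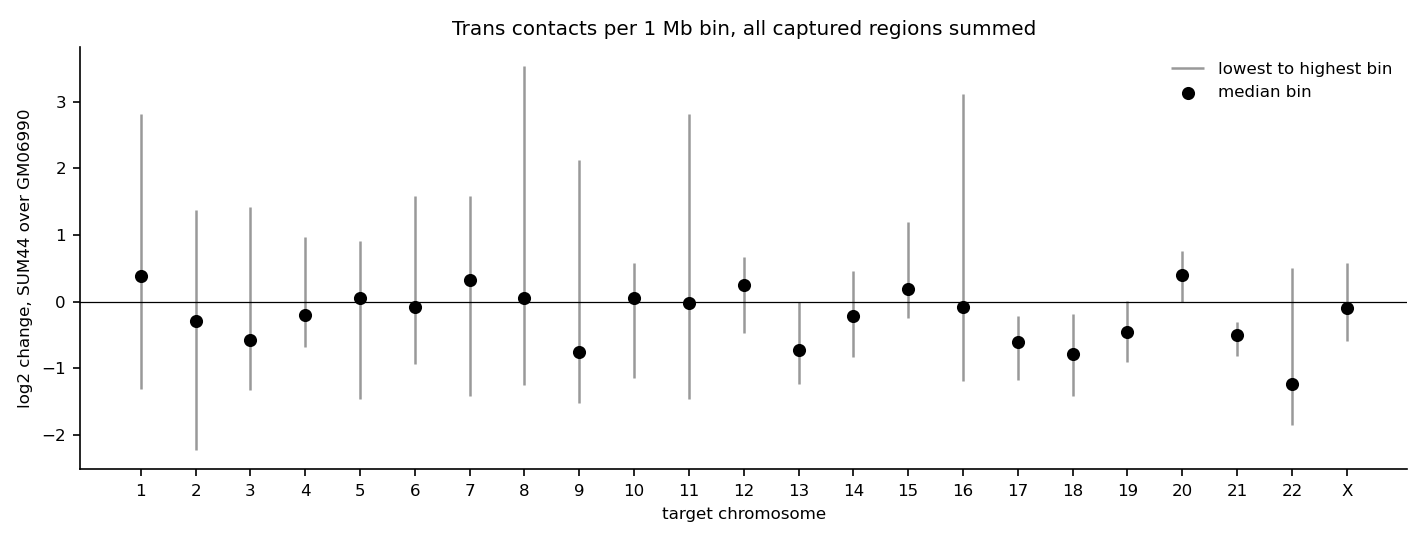
Log2 change of trans contacts in SUM44 over GM06990 (vertical axis) by target chromosome (horizontal axis), for 1 Mb bins summed over the captured regions on other chromosomes; black points are the median bin and grey lines run from the lowest to the highest bin. The highest bin is 3.53 on chromosome 8, and chromosome 22 has the lowest median, -1.24.

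The 5 bins with the largest rise lay on 8p, 16q and 11q. The bin of chromosome 8 from 37 to 38 Mb, which holds ZNF703, a transcriptional regulator gene amplified in some luminal breast cancers, took 3957 and 3959 ppm of the trans contacts in SUM44 and 337 and 345 in GM06990 (log2 change 3.53, SE 0.15, adjusted p = 0.000136). Seen from each of the 5 regions on other chromosomes the change was between 2.89 and 3.80. Its neighbours followed at 3.11 (36 to 37 Mb) and 3.08 (38 to 39 Mb), the latter holding FGFR1, a fibroblast growth factor receptor gene. The bin of chromosome 16 from 54 to 55 Mb changed by 3.11, from 406 and 467 ppm in GM06990 to 3810 and 3754 in SUM44. That of chromosome 11 from 77 to 78 Mb, which holds the kinase gene PAK1, changed by 2.81, and CCND1, the cyclin D1 gene, lay in a bin that changed by 2.27. All 10 bins of chromosome 11 from 70 to 80 Mb were higher and all 10 from 120 to 130 Mb lower. The 5 largest falls all lay on chromosome 2 between 1 and 11 Mb, from -2.03 to -2.23; the bin from 2 to 3 Mb took 72.8 and 84.9 ppm in SUM44 and 363 and 375 in GM06990 (SE 0.44, adjusted p = 0.00734). That call was lost without SUM44 replicate 1, and that from 6 to 7 Mb without SUM44 replicate 2.

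Genes known from breast cancer amplicons, luminal genes and B lymphocyte genes were each read from the 1 Mb bin that holds them. Of 17 listed amplicon genes 11 lay in higher bins and 4 in lower ones (median 0.66), against 510 and 951 of all 2867. Many share a chromosome arm, such as GRHL2, TRPS1, RAD21 and EXT1 on 8q, so that these genes are not separate observations. In far cis from 8q24.21 the bins of ZNF703 (1.89) and FGFR1 (1.09) were higher. Those of GRHL2 (-0.45) and RAD21 (-0.57) were lower, and those of TRPS1 (0.02) and EXT1 (-0.31) were not called. ERBB2, the HER2 receptor gene, was in a lower bin (-0.50), and EGFR at 0.07 and MDM2 at 0.33 were not called (MDM2 was with TMM factors). Of 15 luminal genes, in 14 bins, 6 were in higher and 3 in lower bins (median 0.32). AGR2 (0.86), SPDEF (0.81) and ELF3 (0.78) were higher, XBP1 (-1.19) and PGR (-0.70) lower, and ESR1, the estrogen receptor gene, stood at -0.17 (adjusted p = 0.353), a value that became 0.0088 with TMM factors. Of 15 B lymphocyte genes 4 were in higher bins, IRF4 (0.85) among them, and 7 in lower ones, among them the transcription factor genes EBF1 (-1.27), BCL6 (-0.97) and PAX5 (-0.74) and the CD20 gene MS4A1 (-0.82). With TMM factors the calls higher and lower were 12 and 2, 8 and 2, and 5 and 6 in the 3 lists. A 1 Mb bin holds many genes, and these are contact levels, not expression.

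The trans changes seen from the captured regions correlated with one another, and in a few stretches 1 region exceeded the others seen in trans. Over the tested bins, Pearson's r between the change seen from a region and the mean change seen from the others was 0.735 to 0.848 (2627 to 2793 bins, which share libraries and targets; a description only). Bins in which 1 region exceeded the median of the others by at least 1.5 log2 units were joined over gaps of up to 4 Mb, by a rule set after these values had been seen, and a fit of each region alone called 6672 of 15972 bins (41.8%). The values of these stretches chose them and support nothing further. In the fit of 2q35 alone 60.5% of 2611 bins were called, in that of 8q24.21 48.5% of 2700 and in that of the chromosome 18 region 39.4% of 2770.

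2q35 had such stretches on chromosomes 3 and 7. On chromosome 7 from 142 to 159 Mb all 17 bins were higher from 2q35, with 22845 and 19588 ppm of the trans contacts of that region in SUM44 and 6434 and 6249 in GM06990, a log2 ratio of 1.74; from the other 5 regions it was -0.33. The edge was sharp: the bin from 141 Mb changed by -1.74 and the next, from 142 Mb, by 2.29. On chromosome 3 the 16 bins from 43 to 59 Mb had a log2 ratio of 1.81 from 2q35 and -0.35 from the other 4 regions off that chromosome, and the 7 bins from 9 to 16 Mb 1.30 and -0.16. In far cis from the chromosome 3 region 4 of the 7 bins from 9 to 16 Mb were higher and none lower (median 0.68), and over 43 to 59 Mb 7 of 15 were higher and 5 lower (median 0.31). The bin from 48 to 49 Mb took 827 and 779 contacts with 2q35 in SUM44 and 95 and 232 in GM06990.

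The 5 lower far cis bins of that stretch lay between 47 and 53 Mb. There the far cis contacts of the chromosome 3 region were 33 and 60 in SUM44 and 212 and 418 in GM06990, at levels of 0.0476 and 0.103 against 0.355 and 0.467 (log2 ratio -2.45). From 2q35 the same 6 bins took 7990 and 6847 ppm in SUM44 and 1867 and 1969 in GM06990, and from the other 4 regions 798 and 844 against 1509 and 1561 (-0.90). In these 6 bins SUM44 was above GM06990 from 2q35 and below it from the chromosome 3 region and from the other 4 together, in both replicates; the stretch was picked after its values were seen.

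8q24.21 had 1 such stretch and the chromosome 18 region 3. On chromosome 6 all 13 tested bins from 57 to 72 Mb were higher from 8q24.21, with a log2 ratio of 2.62 against 0.10 from the other 5 regions. The change climbed to 2.92 in the bin from 71 Mb (1507 and 1308 contacts in SUM44, 130 and 277 in GM06990), was 1.23 in the next and -0.02 in that from 73 Mb. From the chromosome 18 region, 16 of 16 bins of chromosome 8 from 104 to 120 Mb were higher, with a log2 ratio of 2.26 against 0.23 from the 4 other regions off chromosome 8. In far cis from 8q24.21, 9 of these 16 bins were higher and 1 lower (median 0.28). The bin from 118 Mb had 1182 and 1077 contacts in SUM44 and 122 and 295 in GM06990 (log2 change 3.32), and the bin from 121 Mb differed by 0.11. EXT1, a heparan sulfate synthesis gene listed among the amplicon genes, lay in a bin of this stretch whose change ranged from 0.01 to 3.25 between the captured regions. On chromosome 5 the bins from 2 to 10 Mb and from 14 to 17 Mb had log2 ratios of 1.93 and 2.20 from the chromosome 18 region and 0.01 and 0.25 from the other 5, and the bins between them changed by 1.56 to 1.93. In all 7 stretches both SUM44 replicates lay above both GM06990 replicates, as the choice of the stretches favours.

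**Figure D5:**
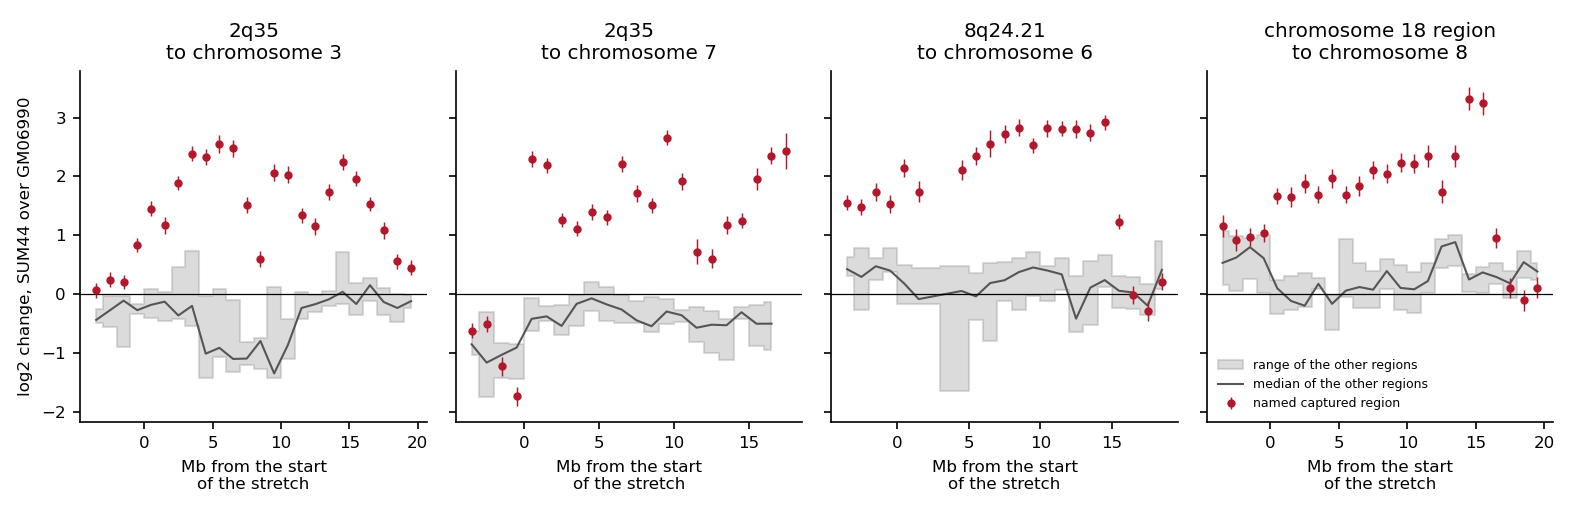
Log2 change of trans contacts in SUM44 over GM06990 (vertical axis) for 1 Mb bins along 4 of the stretches, by distance in Mb from the start of the stretch (horizontal axis); red points with bars of 1 SE are the named captured region, the line is the median and the grey band the range of the other regions on other chromosomes. The red points stand above the band and return to it at the end of the stretches to chromosomes 6 and 8, and on chromosome 7 they step from -1.74 to 2.29 between neighbouring bins.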

How the data were processed

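The authors deposited raw counts of ligated read pairs, with 1 count column per replicate, per captured fragment and target fragment (within 5 Mb) or 50 kb window (farther away and in trans). CASAVA 1.8 and GRCh37 are named in the submitters' processing notes, and positions here follow that build; the aligner and its filters are not given in the sources used here. Of 1077 captured fragments 1075 had cis counts. For each target, the counts with all captured fragments of a region were added up. The expected near cis count came from a negative binomial regression, per replicate and region, on log10 distance (cubic spline, 4 inner knots) and on how many trans contacts the captured fragment had (log), and the expected far cis count from distance alone. Trans bins used trans totals. Bins and fragments with at least 50 contacts in SUM44 or GM06990 were tested with edgeR 4.0.16 (R 4.3.3, quasi-likelihood F test, log expected count as offset) on all 6 columns, BT483 included for the spread (3 residual degrees of freedom), with Benjamini-Hochberg adjustment across all 9839 fragments, 251 windows, 794 far bins or 2867 trans bins. Python 3.11.15 and pandas 2.3.3 were used for sums, and DESeq2 1.42.0 as an alternative. On simulated counts the near cis test recovered 50.7% of 2-fold and 84.8% of 3-fold changes among 9839 fragments.

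A minimum of 50 contacts over both replicates of a line was applied at each scale. Named were, per region, the 2 fragments with the highest and the 2 with the lowest change whose replicates did not overlap, the highest and lowest window and far bin, the 5 largest rises and falls in trans, and genes from lists, all of which were counted; genes given with values were those with the most called fragments or of common interest at the locus and were chosen after their values were seen. The members and lists were chosen with earlier results of these data known. Gene places on GRCh37 came from general knowledge, rounded to 10 kb, in place of an annotation of that build, and start fragments were not used here; the spacing of 129 of 133 genes matched RefSeq on GRCh38.p14 within 20 kb, and 84 had a promoter under the same symbol. Alternatives were DESeq2, the 4 SUM44 and GM06990 columns alone, no filter, at least 200 contacts, at least 20 kb from the capture, other scalings, each region fitted alone, separate p-value adjustment for the risk loci, a replicate block and each replicate left out. A filter on expected counts, the trans level as part of the offset and the rule for stretches seen from 1 region were added after seeing the data.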

Additional observations from a re-analysis of the deposited data

How the results depend on the processing

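Near cis calls per fragment (1964) became 809 with DESeq2, 1162 with at least 200 contacts, 7081 with trans totals, 4732 (4002 higher, 730 lower) with the trans level of the target bin in the offset, a setting chosen after seeing the data, and 703 to 1137 without 1 replicate. Window calls (123) became 208 (155 higher, 53 lower) with that trans level and 60 to 92 without 1 replicate, and far cis calls (423) 246 to 294. Trans calls (1461) became 2366 on the 4 columns of both lines, 6672 of 15972 with each region alone and 580 to 639 without 1 replicate. Trans totals moved the median near cis fragment from 0.08 to 1.74, and the trans level moved it to 0.59.

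With trans totals, 3 named windows reversed, to 0.36 (chromosome 8, 129 Mb), 0.72 (chromosome 3, 80.75 Mb) and 0.79 (chromosome 18, 37 Mb), as did fragments at 108889597 on chromosome 9 (0.039) and at 81975816 (0.14) and 82961672 (0.29) on chromosome 3. Of the 12 named windows 2 more lost their call on that scale, and of the 24 named fragments 6 more. With the trans level the far bin of chromosome 8 at 36 Mb reversed, to -0.54. The cause was not tested.

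With a replicate block the calls were 1841, 123, 421 and 1397; the labels do not pair the replicates, and the deviations of equally numbered ones correlated at -0.05 to 0.06 between SUM44 and GM06990. The other settings kept the direction and the call of 228 of 232 values of named fragments, 95 of 96 of windows, 94 of 94 of far bins and 60 of 60 of trans bins. Leaving out a replicate ended 14 of 96, 5 of 48, 2 of 48 and 2 of 40 of those calls and turned none. The replicates of SUM44 and GM06990 lay apart in all of these named fragments, windows and bins, so that a turn was hardly possible. They lay apart in near cis share too, so the direction of that difference could not turn without any 1 replicate. Among all 9839 tested fragments, 14.9% of simulated 1.5-fold changes were recovered, so that changes of this size were mostly beyond reach. Recovery at the minimum of 50 contacts was not read apart.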
